A study of Mus musculus with 12 samples.

Results

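The actin cytoskeleton and myofibroblast contractile genes were 40 genes chosen by name, of which 39 were measured among 13233 genes in cultured HAFs, the hernia-associated fibroblasts of mouse lower abdominal muscle (LAM). Cnn1 was not analysed here. The 39 genes were 3 actins, 5 smooth muscle type actin-binding proteins, 4 tropomyosins, 7 subunits or kinases of non-muscle myosin, 5 actin crosslinkers, 7 adhesion proteins, 5 LIM or PDZ-LIM proteins and 3 transcription factors. Fulvestrant alone against vehicle had 11 of the 39 higher and 4 lower, where 6.76% and 5.69% of all genes were. Scaled to CPM or by quantiles it had 7 and 5, for which no share of all genes is given here. E2 plus fulvestrant against vehicle had 9 higher and 3 lower, with 7.04% and 5.66% of all genes. Under either other scaling it had 6 and 5, again without a share of all genes. E2 against E2 plus fulvestrant had 4 higher and 5 lower, with 4.62% and 4.97% of all genes. E2 alone against vehicle changed 0 of 39 (0.0756% of all genes higher and 0% lower), with 5 at an unadjusted limma p under 0.05, as were 10.1% of all genes.

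Actin monomers assemble into filaments, which tropomyosins coat, alpha-actinins and filamins crosslink, and non-muscle myosin pulls on to make a contractile stress fiber. The fibers end at focal adhesions, where talin, vinculin, paxillin and zyxin join them to the matrix. Free actin monomers hold the coactivators MRTFA and MRTFB in the cytoplasm, and when monomers are used up MRTF enters the nucleus and drives genes with SRF, many of them genes of the same stress fibers. Smooth muscle actin (Acta2), transgelin (Tagln) and calponin (Cnn1) are the usual markers of a myofibroblast, the contractile fibroblast of scars.

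HAFs were primary cultures from the LAM of Aromhum mice, which carry human aromatase, the enzyme that makes estrogen from androgen. RNA-Seq was performed on 12 libraries in 4 groups of 3. Vehicle cells received the solvents DMSO and ethanol, the E2 group 10 nM estradiol, the combined group fulvestrant at 100 nM before that dose of E2, and the last group only the fulvestrant. Fulvestrant is an antagonist that also lowers the receptor ESR1. All groups were grown for one passage, starved of serum, given DMSO or fulvestrant ahead of ethanol or E2, and kept for 48 h in medium with little charcoal-stripped serum. There was no group of wild-type fibroblasts. The labels did not say whether replicates 1, 2 and 3 came from separate animals or cultures, so p-values measured only the spread between these samples, which may be technical. In bulk RNA fewer cells of a type and less RNA per cell cannot be told apart.

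Reads on the listed genes ranged from 18827792 to 44040507 per library (median 31703872.5), and the 39 genes took 1.30% to 1.65% of them. Of 9 fibroblast markers all were measured, of 10 myogenic markers 1 was, of 7 smooth muscle or pericyte markers 5 were (Rgs5 and Kcnj8 were not), of 5 endothelial markers 1, of 5 macrophage markers 1, of 3 adipocyte markers 0 and of 3 Schwann cell markers 1. With E2 the level of Pgr, a known ESR1 target gene, was above that with E2 plus fulvestrant (log2 difference 3.28, limma adjusted p = 4.69e-05). Replicate 1 stood apart from replicates 2 and 3 in every group, so the replicate number was a term of every test, and the 7 calls of the 39 genes that were lost without replicate 1 are given with and without it.

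Levels were normalized counts, the reads of a gene divided by a factor per library. Per kilobase of exon, Actb was the most abundant of the 39 genes, followed by Tpm4, Actg1, Flna and Cnn3, and Enah was the lowest. Acta2 ranked 18 of 39 per kilobase and Tagln 25 of 39. Close copies of a gene elsewhere in the genome can take or give reads, and over 5% of the 50-base stretches of Actg1 (37.4%), Myl12b (25.4%), Tpm3 (23.2%), Myl12a (16.4%), Tpm4 (11.7%), Cnn3 (10.3%), Actb (9.12%) and Myl6 (8.38%) also lay in transcripts of another gene, so their levels are uncertain. Of the exon sequence, 26.7% of Myl12b, 13.8% of Myl12a and 5.53% of Actg1 overlapped exons of another gene model on the same strand.

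Promoters are shown for Actn1, the gene with the largest rise under fulvestrant, Myl9, the gene with the largest difference in the other direction between E2 and E2 plus fulvestrant, and Srf, the factor that binds the CArG box. The sequences are the 250 bases before the RefSeq start in GRCm38.p6, read 5′ to 3′ on the strand of the gene, with CArG boxes in capitals. A CArG box here is an exact CCWWWWWWGG, W being A or T, and near-matches are not marked. They lie at chr12:80260364-80260613 (minus strand, Actn1), chr2:156775214-156775463 (plus strand, Myl9) and chr17:46556163-46556412 (minus strand, Srf).
Actn1: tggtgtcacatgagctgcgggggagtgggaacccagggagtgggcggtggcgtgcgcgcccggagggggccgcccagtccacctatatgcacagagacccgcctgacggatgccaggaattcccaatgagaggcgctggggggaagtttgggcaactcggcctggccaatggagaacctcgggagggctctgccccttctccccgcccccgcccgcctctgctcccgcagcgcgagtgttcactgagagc
Myl9: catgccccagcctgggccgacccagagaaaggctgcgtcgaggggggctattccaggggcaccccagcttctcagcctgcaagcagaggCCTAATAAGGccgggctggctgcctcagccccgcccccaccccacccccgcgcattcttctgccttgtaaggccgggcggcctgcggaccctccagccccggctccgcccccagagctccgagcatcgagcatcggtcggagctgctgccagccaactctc
Srf: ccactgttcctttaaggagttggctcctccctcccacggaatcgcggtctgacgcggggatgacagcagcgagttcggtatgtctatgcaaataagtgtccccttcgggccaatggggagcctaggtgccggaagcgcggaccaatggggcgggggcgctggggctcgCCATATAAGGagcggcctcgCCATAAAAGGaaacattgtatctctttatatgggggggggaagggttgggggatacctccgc
Srf held 2 boxes, CCATATAAGG from -82 to -73 and CCATAAAAGG from -62 to -53 (the base before the start is -1), and Myl9 held CCTAATAAGG from -161 to -152. No CArG box was found in the Actn1 window.

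Of the 39 genes, 35 had a RefSeq promoter window of 300 bases (the remaining ones were Actb, Tagln, Pxn and Svil). A CArG box lay in the windows of 8 of the 35 (22.9%), namely Actg1, Cnn2, Myl6, Myl9, Vcl, Lima1, Fhl2 and Srf, and in those of 1.81% of 27025 genes. Near-matches, such as CCCTATATGG in the Acta2 window, were not counted. These 8 genes did not move one way: between E2 and E2 plus fulvestrant Myl9 was higher with E2, Fhl2 and Srf were lower, and the log2 differences of the other 5 were -0.06 (Actg1), 0.09 (Cnn2), 0.03 (Myl6), -0.01 (Vcl) and 0.19 (Lima1), none past the test. The letters of 4 other motifs were searched on both strands, allowing overlap with a CArG box or with each other. CATTCC, the core bound by TEAD factors, was in 34.3% of the 35 and in 16.6% of all genes; TGANTCA, bound by AP-1, in 17.1% and 8.97%; TATAAA in 14.3% and 15.7%; and GGTCA, one arm of the site of estrogen receptors, in 45.7% and 43.6%.

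Fulvestrant was first compared with vehicle, which shows what the antagonist did when no E2 was added. Of the 39 genes, 11 were higher and 4 were lower, or 7 and 5 when the values were scaled to CPM or by quantiles. Without such rescaling 6.76% of all 13233 genes were called higher and 5.69% lower. A call was a limma adjusted p under 0.05 (Benjamini-Hochberg over all genes) with a fold change over 1.2. Each call was refitted 15 times, with each replicate number and each single library left out in turn, and calls that were kept in fewer than 10 of the 15 are named beside their values. The median log2 change of the 39 genes was 0.15, against 0.01 for all genes. The largest rises were in the crosslinkers Actn1 and Flnc, and the largest falls were in the myosin genes Mylk and Myh10.

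Actn1 encodes alpha-actinin 1, which ties actin filaments side by side in stress fibers and at adhesions (ENSMUSG00000015143, chromosome 12, 80167547 to 80260371 in GRCm38). Its normalized counts in replicates 1, 2 and 3 were 8272, 7248 and 7451 with vehicle, 7749.9, 7834 and 7410.0 with E2, 15921, 13492 and 13383 with E2 plus fulvestrant, and 15850.5, 14074 and 14114 with fulvestrant alone. All 6 libraries with fulvestrant were above all 6 without it, and within each set the libraries with and without E2 overlapped. Against vehicle the log2 change with fulvestrant was 0.94 (SE 0.06, limma adjusted p = 1.61e-05), a 1.92-fold rise from 7657 ± 542 to 14679.5 ± 1014 (SD, n = 3). E2 plus fulvestrant against vehicle gave 0.90 (SE 0.06, limma adjusted p = 8.95e-06), and E2 against E2 plus fulvestrant gave -0.89 (SE 0.06, limma adjusted p = 8.59e-06). Treatment accounted for 96.8% of the variance of Actn1 over the 12 libraries and replicate number for 2.4%. Without the replicate number in the fit Actn1 was the one gene of the 39 still called, in each of these 3 comparisons.

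The other alpha-actinin, Actn4, did not pass in any comparison of groups. Its change with fulvestrant against vehicle was 0.16 (SE 0.06, limma adjusted p = 0.0917). Flnc (ENSMUSG00000068699, chromosome 6, 29433256 to 29461883), a filamin that crosslinks actin and is best known from muscle, had 10543, 15605 and 17271 with vehicle, 13038, 21899 and 19509.6 with E2, 22079, 24828 and 23275 with E2 plus fulvestrant, and 23133, 22365 and 22678 with fulvestrant alone. All 6 fulvestrant libraries again lay above the 6 others, and vehicle was lowest in each replicate number. The change with fulvestrant was 0.68 (SE 0.14, limma adjusted p = 0.00915) and that with E2 plus fulvestrant was 0.72 (SE 0.14, limma adjusted p = 0.00645), both against vehicle. By replicate number fulvestrant minus vehicle was 1.13, 0.52 and 0.39 for Flnc, so most of the rise lay in replicate 1. Flna, the main filamin of non-muscle cells, changed by 0.15 with fulvestrant and was not called.

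Svil encodes supervillin, a membrane-linked actin and myosin binding protein, and moved the other way. Its normalized counts were 9310.1, 6124 and 6809 with vehicle, 8545, 8285 and 7686 with E2, 7259, 5754 and 5639 with E2 plus fulvestrant, and 7366, 5185 and 4959 with fulvestrant alone. In each replicate number both libraries with fulvestrant were below both without it. The change was -0.34 (SE 0.09, limma adjusted p = 0.0257) with fulvestrant against vehicle and 0.40 (SE 0.09, limma adjusted p = 0.0158) for E2 against E2 plus fulvestrant. These calls were kept in 9 and 8 of the 15 leave-outs, and the first was lost without the variance trend.

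**Figure D1:**
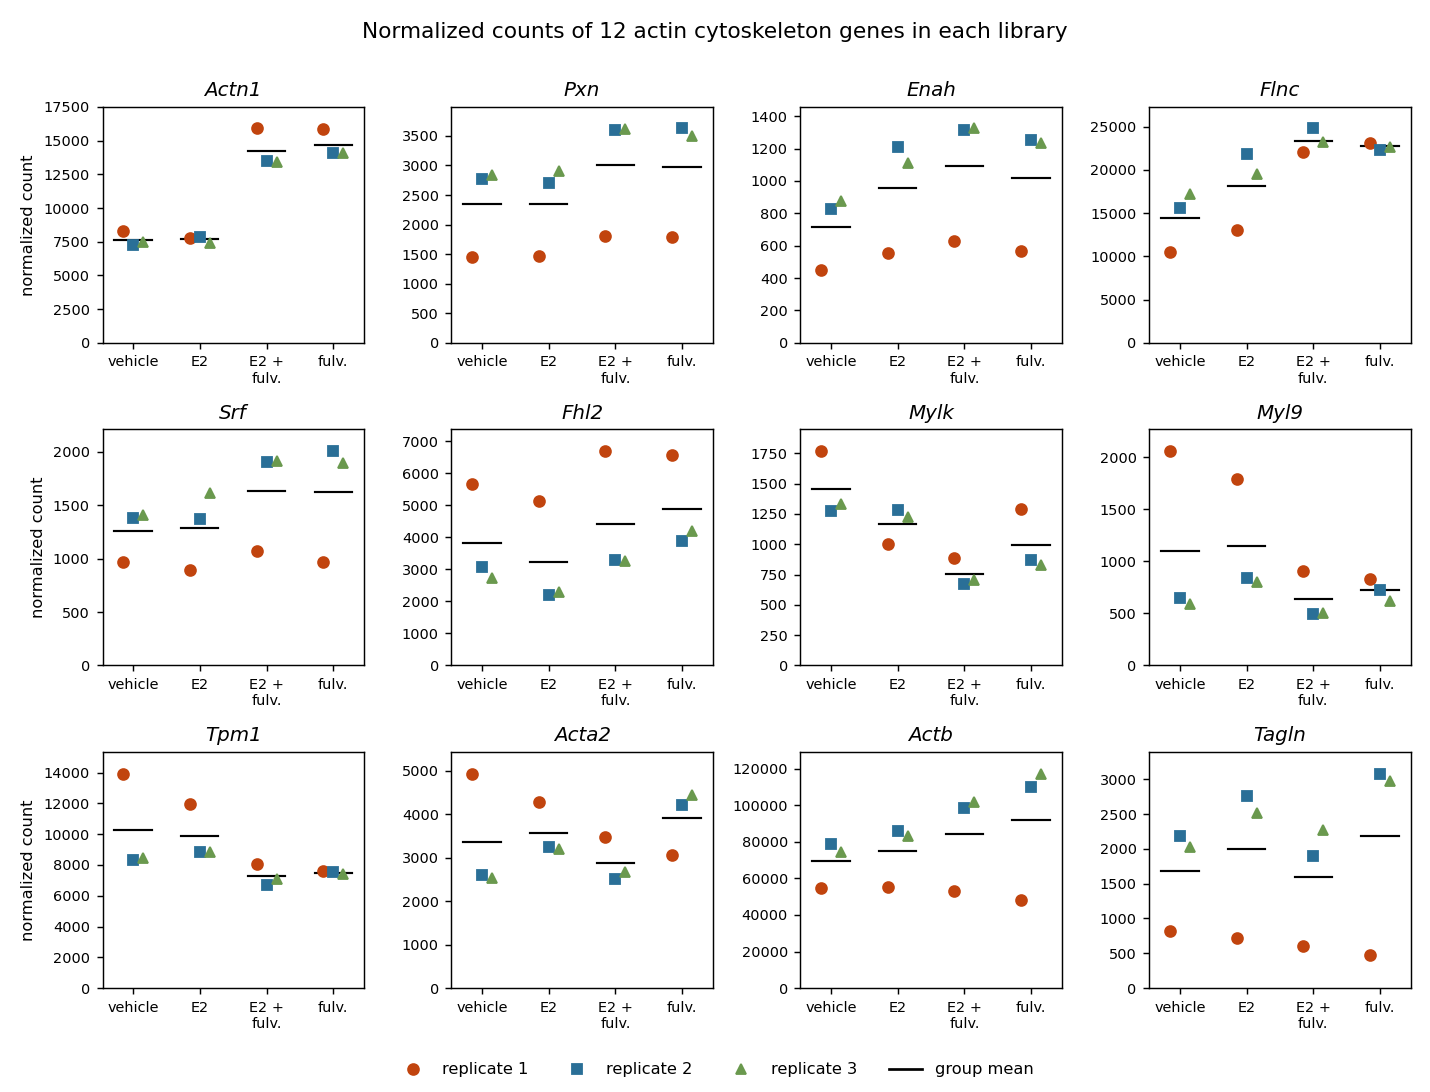
Normalized counts (vertical axis, linear from 0) of 12 of the genes in the 12 libraries, by group on the horizontal axis; circles are replicate 1, squares replicate 2, triangles replicate 3 and bars group means. Actn1 and Flnc were higher in all 6 libraries with fulvestrant, Tpm1 was lower in all 6, and Pxn, Enah, Srf and Tagln were lowest in replicate 1 of every group.

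Among the adhesion proteins 2 of 7 rose with fulvestrant and 0 fell, where 6.76% and 5.69% of all genes did. Pxn (ENSMUSG00000029528, chromosome 5, 115506676 to 115555987) encodes paxillin, a scaffold of focal adhesions, and had 1454, 2779.5 and 2836 with vehicle, 1462, 2696 and 2906 with E2, 1809, 3594 and 3621 with E2 plus fulvestrant, and 1786, 3631 and 3505 with fulvestrant alone. Replicate 1 was lowest in every group, yet within each replicate number the fulvestrant libraries were above the other ones. The change of Pxn was 0.33 (SE 0.05, limma adjusted p = 0.00107) with fulvestrant and 0.35 (SE 0.05, limma adjusted p = 7.25e-04) with E2 plus fulvestrant, both against vehicle, and -0.35 (SE 0.05, limma adjusted p = 9.00e-04) for E2 against E2 plus fulvestrant.

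Enah (ENSMUSG00000022995, chromosome 1, 181896384 to 182019990) encodes MENA, which lengthens actin filaments at the cell edge and at adhesions. Its normalized counts were 450.0, 826 and 878 with vehicle, 554, 1208 and 1109 with E2, 628, 1315 and 1326 with E2 plus fulvestrant, and 568, 1249.9 and 1233 with fulvestrant alone. Vehicle was lowest in every replicate number, E2 came next and both fulvestrant groups were highest. Enah changed by 0.47 (SE 0.07, limma adjusted p = 9.77e-04) with fulvestrant and by 0.58 (SE 0.07, limma adjusted p = 2.82e-04) with E2 plus fulvestrant against vehicle. The difference between E2 and E2 plus fulvestrant was -0.19 (SE 0.07, limma adjusted p = 0.0905) and did not pass the fold threshold. The remaining adhesion genes were not called in any comparison of groups, with changes under fulvestrant of -0.03 for Vcl (vinculin), 0.13 for Zyx (zyxin), 0.03 for Tln1 (talin 1), 0.26 for Vasp and 0.07 for Tes (testin).

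Of the 5 LIM and PDZ-LIM genes, Csrp1 and Fhl2 rose with fulvestrant. Csrp1, a LIM protein of smooth muscle and fibroblasts, had 880.1, 1270.1 and 1245 with vehicle, 1023, 1458 and 1370.3 with E2, 1249, 1519.6 and 1501 with E2 plus fulvestrant, and 1118, 1628 and 1717 with fulvestrant alone. It rose by 0.39 (SE 0.07, limma adjusted p = 0.00375) with fulvestrant and by 0.34 (SE 0.07, limma adjusted p = 0.00655) with E2 plus fulvestrant against vehicle. Fhl2, a LIM protein found at adhesions and in the nucleus, had 5649.8, 3059.6 and 2724 with vehicle, 5141, 2210.1 and 2299 with E2, 6692, 3288 and 3250.3 with E2 plus fulvestrant, and 6565, 3874 and 4186 with fulvestrant alone. For both genes each fulvestrant library was above the libraries of its replicate number without fulvestrant, although replicate 1 lay highest for Fhl2 and lowest for Csrp1. Fhl2 changed by 0.39 (SE 0.09, limma adjusted p = 0.0139) with fulvestrant and by -0.48 (SE 0.09, limma adjusted p = 0.00598) for E2 against E2 plus fulvestrant. Both calls of Fhl2 were lost without replicate 2 and without replicate 3. The first was also lost with only the 2 groups fitted and the block kept. Against vehicle E2 plus fulvestrant gave 0.20 for Fhl2 (SE 0.09, limma adjusted p = 0.152), which was not called. Under fulvestrant Lima1 changed by -0.35, Pdlim5 by 0.24 and Pdlim7 by 0.14, and none of these passed.

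Of the transcription factors that drive many genes of stress fibers, Srf and Mrtfa were called higher with fulvestrant and Mrtfb did not pass. Srf (ENSMUSG00000015605, chromosome 17, 46548329 to 46556175) had 972, 1382 and 1412 with vehicle, 889.7, 1366 and 1614 with E2, 1074, 1904 and 1911 with E2 plus fulvestrant, and 972, 2008 and 1893 with fulvestrant alone. In replicates 2 and 3 the fulvestrant libraries stood above the other libraries, whereas in replicate 1 vehicle and fulvestrant were level. Srf changed by 0.32 (SE 0.09, limma adjusted p = 0.0393) with fulvestrant and 0.35 (SE 0.09, limma adjusted p = 0.028) with E2 plus fulvestrant against vehicle, and by -0.33 (SE 0.09, limma adjusted p = 0.0417) for E2 against E2 plus fulvestrant. The 3 calls of Srf were lost in CPM and without the variance trend, and they were kept in 6, 8 and 5 of the 15 leave-outs. By replicate number fulvestrant minus vehicle was 0.00, 0.54 and 0.42.

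Mrtfa, listed in older annotation as Mkl1, had 2141, 2229 and 2200.1 with vehicle, 2361, 2212 and 2208 with E2, 2854, 2532 and 2559 with E2 plus fulvestrant, and 3063, 2502 and 2371 with fulvestrant alone. All 6 fulvestrant libraries were above the 6 others by a small margin. Its change of 0.26 (SE 0.07, limma adjusted p = 0.0269) with fulvestrant lay just over the fold threshold of 1.2, and without replicate 1 it was 0.14 (limma adjusted p = 0.108). By replicate number it was 0.52, 0.17 and 0.11, largest in replicate 1, where that of Srf was smallest. With E2 plus fulvestrant against vehicle the change of Mrtfa was 0.27 (SE 0.07, limma adjusted p = 0.0229), and 0.20 (limma adjusted p = 0.0338) without replicate 1, under the fold threshold. Both calls of Mrtfa were also lost under both other scalings and without the variance trend, and they were kept in 9 and 8 of the 15 leave-outs. Mrtfb, or Mkl2, had 1705, 1606 and 1801 with vehicle, 1774, 1907 and 1749 with E2, 1838, 1710.3 and 1577 with E2 plus fulvestrant, and 1908, 1587 and 1309 with fulvestrant alone. The groups overlapped, and its change with fulvestrant was -0.10 (SE 0.10, limma adjusted p = 0.522).

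The 7 early serum response genes, several of which are textbook targets of SRF, were taken from a list of other actin pathway genes chosen by name. With fulvestrant against vehicle 4 of the 7 rose and 0 fell (6.76% and 5.69% of all genes), with a median log2 change of 0.46. The largest of these rises was in Dusp1, a phosphatase of MAP kinases, at 1.38 (SE 0.27, limma adjusted p = 0.00713). Against E2 plus fulvestrant, E2 had 3 of the 7 lower and 0 higher (4.97% and 4.62% of all genes). Dusp1 was also the largest of those, at -1.34 (SE 0.27, limma adjusted p = 0.0097). Calls of these 7 genes were not followed through the refits. Their summed normalized counts ran from 2916 to 11518 within vehicle alone.

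Tropomyosins coat actin filaments and decide which myosins and crosslinkers can bind them, and the 4 genes split. Tpm1 (ENSMUSG00000032366, chromosome 9, 67022590 to 67049406) had 13943, 8339 and 8462 with vehicle, 11992, 8824 and 8866 with E2, 8080.3, 6685 and 7101 with E2 plus fulvestrant, and 7591, 7536 and 7385 with fulvestrant alone. All 6 libraries with fulvestrant were below all 6 without it, and replicate 1 of vehicle and of E2 lay far above the rest. The change was -0.41 (SE 0.11, limma adjusted p = 0.0357) with fulvestrant and -0.45 (SE 0.11, limma adjusted p = 0.0224) with E2 plus fulvestrant against vehicle, and 0.43 (SE 0.11, limma adjusted p = 0.0346) for E2 against E2 plus fulvestrant. Without replicate 1 the fulvestrant change of Tpm1 was -0.17 (limma adjusted p = 0.0498), under the fold threshold, while the difference between E2 and E2 plus fulvestrant was 0.36 (limma adjusted p = 0.00165) and the change with E2 plus fulvestrant was -0.29 (limma adjusted p = 0.00554). All 3 calls of Tpm1 were lost without the variance trend. They were kept in 6 of the 15 leave-outs for fulvestrant, 9 for E2 plus fulvestrant and 7 for E2 against E2 plus fulvestrant, the last being lost without replicate 2, without replicate 3 and without any single library of its groups.

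Tpm3 had 5128, 7082 and 7295 with vehicle, 5449.7, 7348 and 7659 with E2, 6616, 8827 and 9095 with E2 plus fulvestrant, and 5838, 9238 and 9067 with fulvestrant alone. It went against Tpm1, higher with fulvestrant in each replicate number. The change of Tpm3 was 0.29 (SE 0.05, limma adjusted p = 0.005) with fulvestrant, 0.33 (SE 0.05, limma adjusted p = 0.00234) with E2 plus fulvestrant, and -0.26 (SE 0.05, limma adjusted p = 0.0105) for E2 against E2 plus fulvestrant. The last lay just over the fold threshold and lost its call without replicate 1, at -0.26 (limma adjusted p = 0.0104), in 6 of the 15 leave-outs in all, and under both other scalings. The call with fulvestrant alone was also lost under both other scalings, at 0.25 in CPM and 0.22 by quantiles, and that with E2 plus fulvestrant by quantiles, at 0.25, all of them under the fold threshold. Tpm2, the tropomyosin of smooth muscle and scar fibroblasts, had 3056, 1529 and 1450.2 with vehicle, 2989.7, 1665 and 1775 with E2, 2506, 1671 and 1941 with E2 plus fulvestrant, and 2631, 1928 and 1902 with fulvestrant alone. Replicate 1 was highest in all groups and the groups overlapped, with a change of 0.17 (SE 0.11, limma adjusted p = 0.347) under fulvestrant. Tpm4 changed by 0.36 (SE 0.12, limma adjusted p = 0.0607) under fulvestrant and was not called.

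Non-muscle myosin is turned on by phosphorylation of its regulatory light chain, and here the kinase gene Mylk and the heavy chain gene Myh10 fell with fulvestrant, while the light chain gene Myl9 passed only between E2 and E2 plus fulvestrant. Mylk (ENSMUSG00000022836, chromosome 16, 34745210 to 35002420) encodes myosin light chain kinase. Its normalized counts were 1770.0, 1273 and 1329 with vehicle, 1004, 1284 and 1223 with E2, 890.3, 674 and 708 with E2 plus fulvestrant, and 1287, 868 and 830.3 with fulvestrant alone. E2 plus fulvestrant lay below vehicle and below E2 in every replicate number. The change was -0.56 (SE 0.15, limma adjusted p = 0.0299) with fulvestrant and -0.94 (SE 0.15, limma adjusted p = 0.00235) with E2 plus fulvestrant against vehicle, and 0.63 (SE 0.15, limma adjusted p = 0.0231) for E2 against E2 plus fulvestrant. The first and the last were lost without the variance trend and were each kept in 8 of the 15 leave-outs. E2 against vehicle gave -0.31 for Mylk, which rested on replicate 1, since the differences by replicate number were -0.82, 0.01 and -0.12.

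Myl9 (ENSMUSG00000067818, chromosome 2, 156775420 to 156781658) encodes the regulatory light chain of smooth muscle and non-muscle myosin. It had 2059, 643 and 585 with vehicle, 1792, 839.8 and 805 with E2, 911, 490.3 and 504 with E2 plus fulvestrant, and 827, 727 and 619 with fulvestrant alone. Replicate 1 was highest in each group, and E2 was above E2 plus fulvestrant in each replicate number. That difference was 0.81 (SE 0.22, limma adjusted p = 0.0369), and the change with fulvestrant against vehicle was -0.35 (SE 0.22, limma adjusted p = 0.315), falling in replicate 1 only (-1.32, 0.18 and 0.08 by replicate number). Without replicate 1 the difference between E2 and E2 plus fulvestrant was 0.73 (limma adjusted p = 4.75e-04). The call was kept in 7 of the 15 leave-outs, being lost without replicate 2, without replicate 3 and without any single library of the 2 groups, and it was lost without the variance trend.

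Myh10, the heavy chain of non-muscle myosin IIB, had 17473, 7065 and 7826 with vehicle, 13179.9, 8166 and 7046 with E2, 8247, 6410.3 and 6124 with E2 plus fulvestrant, and 10257, 6155 and 5538 with fulvestrant alone. Fulvestrant was lower than vehicle in each replicate number, and the fall was largest in replicate 1. The change was -0.49 (SE 0.14, limma adjusted p = 0.0332) with fulvestrant and -0.53 (SE 0.14, limma adjusted p = 0.0239) with E2 plus fulvestrant, and without replicate 1 the second was -0.25 (limma adjusted p = 0.0622). Both were lost without the variance trend, and the first was kept in 8 of the 15 leave-outs. Over all the alternatives the first ran from -0.66 to -0.30, and its call was lost without vehicle replicate 1. Myh9, the heavy chain of myosin IIA, was not called in any comparison of groups, with a change of 0.10 (SE 0.11, limma adjusted p = 0.582) under fulvestrant. The remaining light chains changed by 0.14 (Myl6), 0.15 (Myl12a) and -0.05 (Myl12b) under fulvestrant and were not called.

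**Figure D2:**
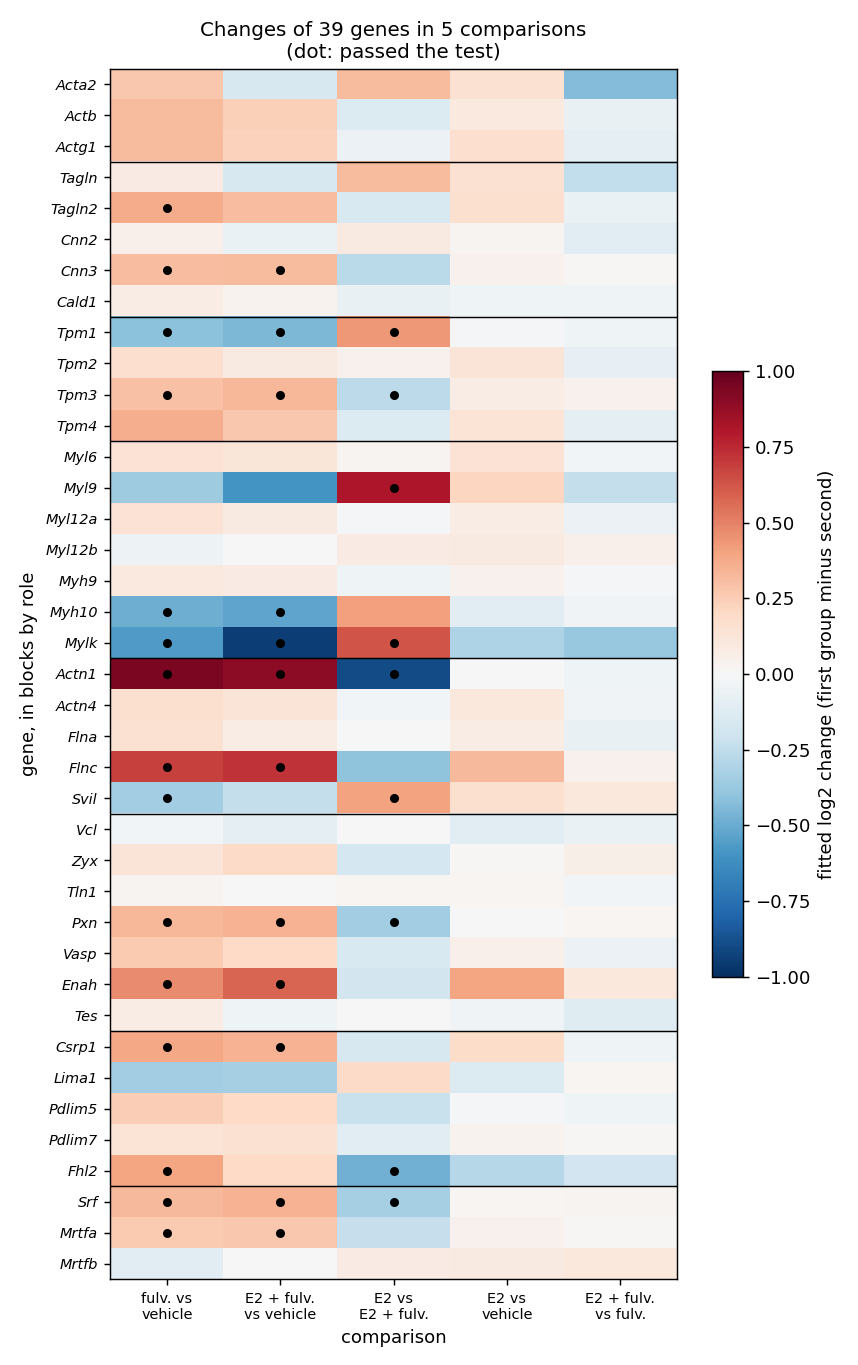
Fitted log2 changes (color, first group minus second, scale -1 to 1) of the 39 genes (rows, in blocks by role) in 5 comparisons (columns); dots mark genes that passed the test. The first 3 columns, which set libraries with fulvestrant against libraries without it, hold 15, 12 and 9 dots, and the 2 columns for E2 hold 0.

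Among the actins, 0 of 3 passed in any comparison of groups. Acta2 (ENSMUSG00000035783, chromosome 19, 34241090 to 34255590), the smooth muscle actin by which myofibroblasts are named, had 4933, 2592 and 2540.2 with vehicle, 4288, 3234 and 3209 with E2, 3466, 2504 and 2671 with E2 plus fulvestrant, and 3058, 4216 and 4448 with fulvestrant alone. Replicate 1 went one way and replicates 2 and 3 the other: fulvestrant minus vehicle was -0.69, 0.70 and 0.81 by replicate number. The fitted changes of Acta2 were 0.27 (SE 0.22, limma adjusted p = 0.435) for fulvestrant against vehicle, 0.31 (SE 0.22, limma adjusted p = 0.378) for E2 against E2 plus fulvestrant and 0.15 (SE 0.22, limma adjusted p = 0.829) for E2 against vehicle. The 95% interval of the last was -0.32 to 0.63.

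Actb, which encodes beta-actin and is often used as a reference gene, had 54886, 79053 and 74578 with vehicle, 55376, 86093 and 83150.1 with E2, 52845, 98315 and 102029 with E2 plus fulvestrant, and 48082, 110015 and 117351 with fulvestrant alone. Replicate 1 was lowest throughout, and replicates 2 and 3 were higher with fulvestrant than with vehicle while replicate 1 was lower (-0.19, 0.48 and 0.65 by replicate number). The fitted change of Actb was 0.31 (SE 0.15, limma adjusted p = 0.191) with fulvestrant. Actg1, or gamma-actin, changed by 0.32 (SE 0.13, limma adjusted p = 0.132).

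Tagln encodes transgelin, a calponin-related protein of smooth muscle and myofibroblasts. It had 823, 2186 and 2033 with vehicle, 719, 2766 and 2522 with E2, 604, 1902 and 2274 with E2 plus fulvestrant, and 474, 3083 and 2982 with fulvestrant alone. Replicate 1 was far below the other libraries in all groups. The change of Tagln with fulvestrant was 0.08 (SE 0.21, limma adjusted p = 0.825), with differences by replicate number of -0.80, 0.50 and 0.55. Its relatives Tagln2 and Cnn3 rose with fulvestrant, by 0.37 (SE 0.10, limma adjusted p = 0.0311) and 0.31 (SE 0.09, limma adjusted p = 0.0331). The call of Tagln2 was lost by quantiles, and those of both genes without the variance trend. They were kept in 9 and 5 of the 15 leave-outs. Cnn3 (calponin 3) also rose with E2 plus fulvestrant against vehicle, by 0.32 (SE 0.09, limma adjusted p = 0.0292). Both calls of Cnn3 were lost without replicate 1, where its changes were 0.21 (limma adjusted p = 0.0293) and 0.21 (limma adjusted p = 0.0387), under the fold threshold, and under both other scalings, and the second was kept in 7 of the 15 leave-outs. Cnn2 (calponin 2) and Cald1 (caldesmon) were not called, at 0.05 and 0.08 under fulvestrant.

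E2 plus fulvestrant against vehicle shares its vehicle libraries with the comparison of fulvestrant alone, so the values of both are given side by side above and not as separate support. Of the 39 genes 9 were higher and 3 lower than vehicle, while 7.04% of all genes were called higher and 5.66% lower. Under either of the other scalings 6 of the 39 were higher and 5 lower. The median log2 change of the 39 genes was 0.12, against 0.01 for all genes.

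E2 against E2 plus fulvestrant asks what the antagonist changed while E2 was present, and uses libraries that the comparison of fulvestrant with vehicle does not. Both comparisons share the replicate terms and the spread estimate of the same fit, so their calls are not independent. With E2, 4 of the 39 genes were higher (Myl9, Mylk, Tpm1 and Svil) and 5 were lower (Actn1, Fhl2, Pxn, Srf and Tpm3), or 4 and 3 in CPM. Without rescaling 4.62% of all genes were called higher with E2 and 4.97% lower. The median log2 difference was -0.04 for the 39 genes and -0.01 for all genes. Of the 39 genes, 31 had the same sign of the fulvestrant change with E2 and without E2, and 8 were called in the same direction in both, of 9 called with E2 and 15 called without it. The 8 were Actn1, Fhl2, Pxn, Srf and Tpm3, which rose with fulvestrant, and Tpm1, Mylk and Svil, which fell. Of all genes, 6.95% were called in the same direction in both. Without replicate 1 Tpm3 was not called with E2 present, nor Tpm1 without E2. In CPM Srf and Tpm3 were called in neither comparison, and without the variance trend Tpm1, Mylk and Srf were called in neither and Svil only with E2. With only the 2 groups fitted and the block kept, Tpm1, Tpm3, Svil, Fhl2 and Srf were not called without E2. Without replicate 2 or without replicate 3, only Actn1 and Pxn of the 8 were called in both. Over all genes the sign was shared by 73.9%. The 9th, Myl9, was called only with E2 present, but the difference between the 2 fulvestrant effects was 0.46 (SE 0.31, limma adjusted p = 0.944).

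**Figure D3:**
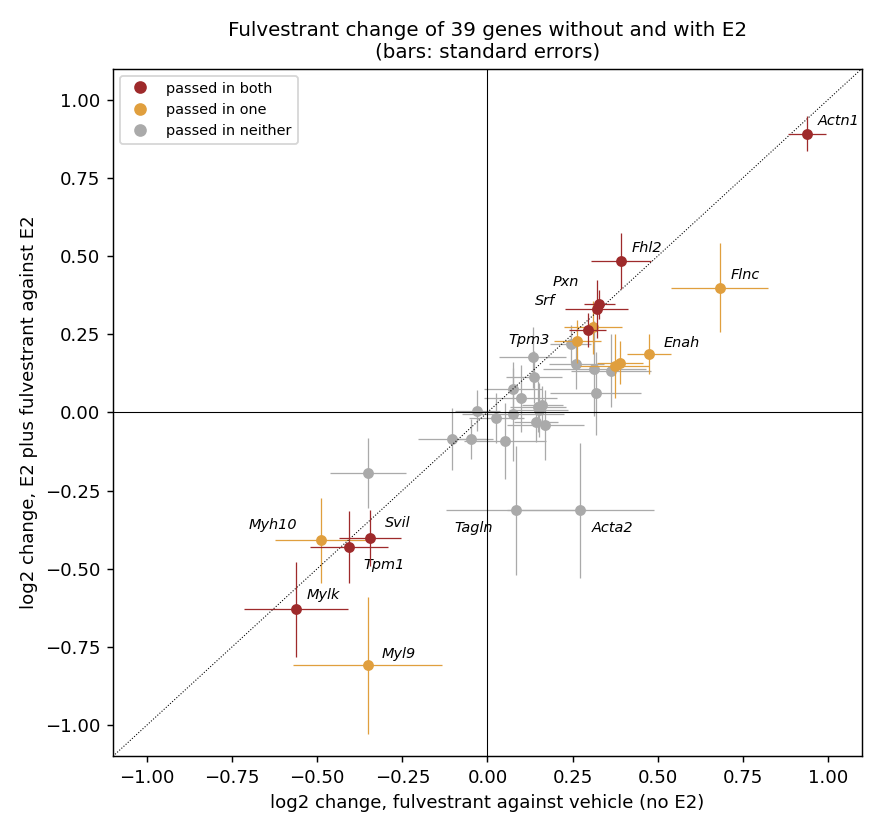
Fitted log2 change of each of the 39 genes with fulvestrant, without E2 (horizontal axis) and with E2 (vertical axis), with standard errors as bars and a dotted line of equal change; red genes passed in both comparisons, orange in one and gray in neither. Actn1 sits at the upper right near the line (0.94 and 0.89), and Acta2 and Tagln have opposite signs on the 2 axes.

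E2 alone against vehicle tests the hormone without the antagonist. It changed 0 of the 39 genes (5 at an unadjusted p under 0.05), while 0.0756% of all genes were called higher and 0% lower, with 1340 at an unadjusted p under 0.05. The largest differences were 0.40 for Enah (SE 0.07, limma adjusted p = 0.083), 0.32 for Flnc (limma adjusted p = 0.485) and -0.31 for Mylk (limma adjusted p = 0.517). Intervals were narrow for Pxn and Actn1, where the 95% interval of the E2 change was -0.10 to 0.10 and -0.12 to 0.13 on the log2 scale. For Tagln the interval was -0.30 to 0.61 and for Actb -0.24 to 0.43.

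With fulvestrant present (E2 plus fulvestrant against fulvestrant) E2 changed 0 of the 39 genes (1 at an unadjusted p under 0.05, and 255 of all genes). All genes called higher were 0% and all called lower were 0%. The interaction of E2 and fulvestrant, which tests whether the E2 change differed by fulvestrant, called 0 of the 39 (2 at an unadjusted p under 0.05) and 0% of all genes in either direction (501 at an unadjusted p under 0.05). The fitted interaction was largest for Acta2, at 0.59 (SE 0.30, limma adjusted p = 0.944).

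Replicate number weighed more than treatment for most of these genes. It accounted for a median of 60.5% of the variance of the 39 genes and treatment for 22.2%, against 57.7% and 17.9% over all genes. Replicate number had more of the variance in 25 of the 39 genes and treatment in 14. The F test of replicate number called 24 of the 39, and 52.2% of all genes. In 15 genes the 4 libraries of replicate 1 were below the other 8 libraries and in 4 they were above (Tpm2, Myh10, Actn4 and Fhl2), which held for 23.4% and 21.6% of all genes.

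The genes low in replicate 1 were led by Tagln, whose log2 level there was -1.92 relative to the mean of replicates 2 and 3. Tes stood at -1.20, Enah at -1.04, Pxn at -0.97, Actb at -0.81 and Srf at -0.77. The genes high in replicate 1 were led by Myl9 at 1.01, with Fhl2 at 0.97, Myh10 at 0.81 and Tpm2 at 0.69. Myl9, Tpm2 and Tagln are all smooth muscle type contractile genes, and they did not share a direction.

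**Figure D4:**
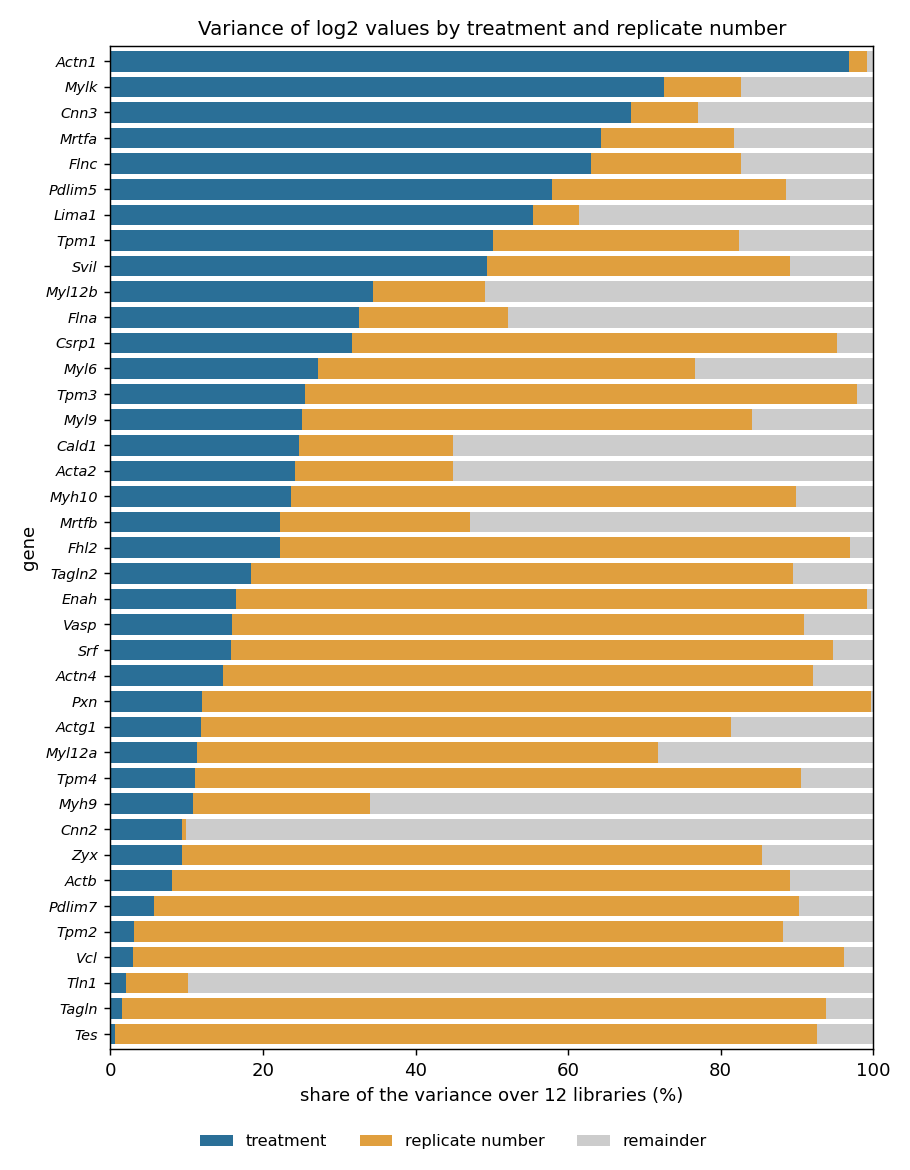
Share of the variance of log2 values over the 12 libraries (horizontal axis, percent) that lay between treatments (blue), between replicate numbers (orange) and in the remainder (gray), for each of the 39 genes, ordered by the treatment share. Actn1 is at the top with 96.8% between treatments, and Tagln and Vcl had over 92% between replicate numbers.

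The fulvestrant change itself differed by replicate number. Over the 39 genes the median of fulvestrant minus vehicle was -0.07 in replicate 1, 0.27 in replicate 2 and 0.31 in replicate 3. On replicates 2 and 3 alone (2 libraries per group), 19 of the 39 genes rose with fulvestrant and 3 fell, where 17.5% of all genes were called in either direction. Members called there and not with all replicates included Acta2 at 0.75 (limma adjusted p = 1.66e-05), Tpm4 at 0.59, Actg1 at 0.58, Actb at 0.57, Tagln at 0.52, Vasp at 0.40 and Tpm2 at 0.36. In replicate 1 each of these 7 was lower with fulvestrant than with vehicle. Leaving out replicate 1 took the SE of Acta2 from 0.22 to 0.06. The p-values of this fit therefore describe replicates 2 and 3 and are not separate support.

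On the same 8 libraries, E2 against E2 plus fulvestrant had 7 of the 39 genes higher and 5 lower, where 12.2% of all genes were called in either direction. Among them Acta2 was higher with E2, by 0.32 (limma adjusted p = 0.0044), and Tagln by 0.34 (limma adjusted p = 0.0263). With all replicates neither was called, and the differences of Acta2 by replicate number were 0.31, 0.37 and 0.26. E2 plus fulvestrant against vehicle had 13 higher and 3 lower, where 13.2% of all genes were called. E2 against vehicle called 2 genes, Acta2 at 0.33 (limma adjusted p = 0.043) and Enah at 0.44 (limma adjusted p = 0.0349), where 0.446% of all genes were called. E2 plus fulvestrant against fulvestrant called Acta2 alone of the 39, at -0.74 (limma adjusted p = 0.00166), where 0.0302% of all genes were called. The interaction called Acta2 at 1.07 (limma adjusted p = 0.00139) and Tagln at 0.87 (limma adjusted p = 0.0438), where 0.0831% of all genes were called. In replicates 2 and 3, that is, Acta2 was above vehicle with E2 alone and with fulvestrant alone, and E2 plus fulvestrant was close to vehicle. In replicate 1 all 3 treatments were below vehicle. The p-values of Acta2 against vehicle and in the interaction here leave out that replicate, with 2 libraries per group, and are descriptions. What sets replicate 1 apart was not given in the labels, and its part in these results was not tested beyond leaving it out.

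**Figure D5:**
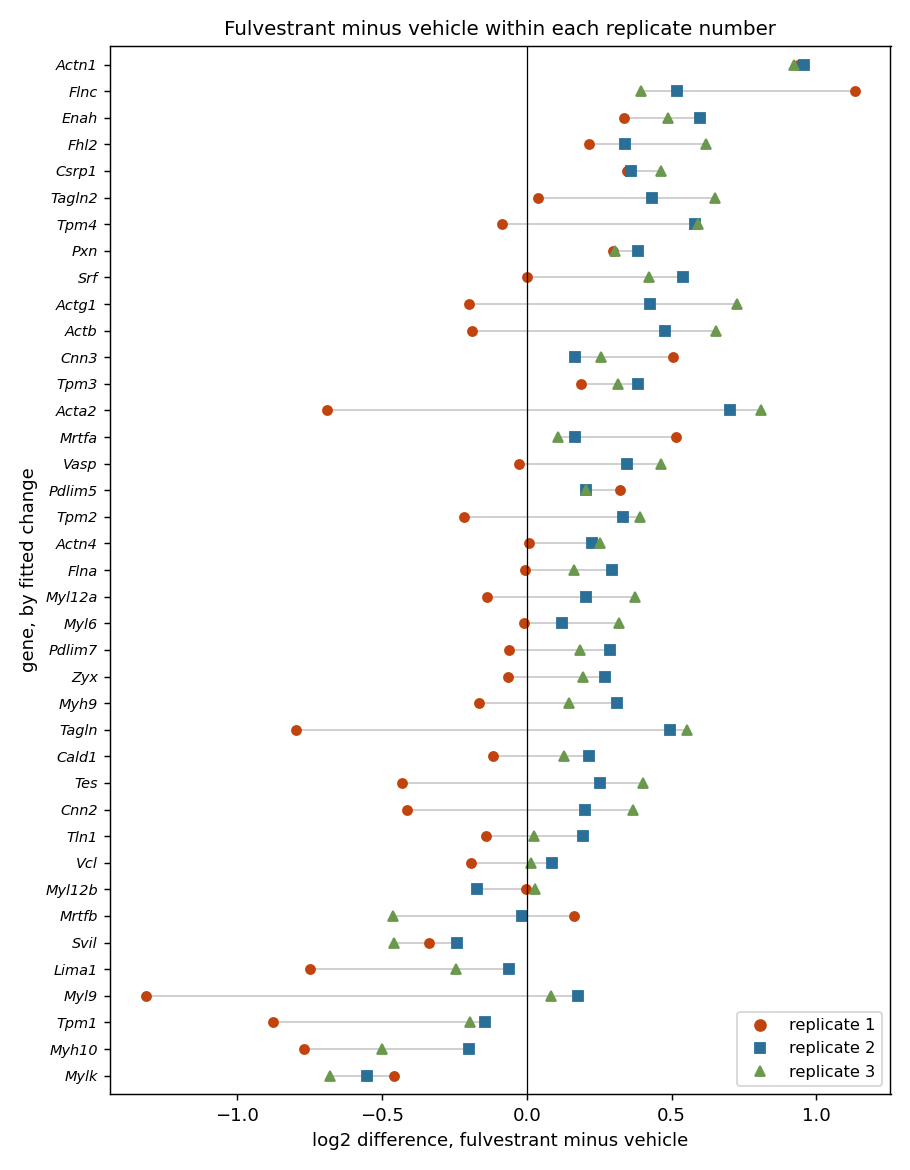
Log2 difference of fulvestrant minus vehicle (horizontal axis) in replicate 1 (circles), replicate 2 (squares) and replicate 3 (triangles) for the 39 genes, ordered by the fitted change, with a line from the lowest to the highest. Actn1, Pxn and Csrp1 span a narrow range above 0, while Acta2, Tagln and Myl9 lie on both sides of 0.

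The wider actin pathway was described by 77 other genes chosen by name, of which 73 were measured. With fulvestrant against vehicle 18 rose and 3 fell (6.76% and 5.69% of all genes), and with E2 plus fulvestrant against vehicle 17 rose and 2 fell (7.04% and 5.66% of all genes). With E2 against E2 plus fulvestrant 3 were higher and 13 lower (4.62% and 4.97% of all genes), and with E2 against vehicle 1 was higher (0.0756% of all genes), the stress fiber protein gene Palld at 0.43 (SE 0.06, limma adjusted p = 0.0234). None passed in E2 plus fulvestrant against fulvestrant or in the interaction. Of the 23 genes for actin turnover 7 rose with fulvestrant and 0 fell.

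Beside Dusp1, the largest rises of this wider list with fulvestrant were in Gsn, which encodes the filament-severing protein gelsolin (1.22 (SE 0.21, limma adjusted p = 0.0038)), and Tns1, the adhesion protein tensin 1 (0.71 (SE 0.13, limma adjusted p = 0.00444)). In the comparison of E2 with E2 plus fulvestrant both were lower with E2, at -0.88 for Gsn and -0.69 for Tns1. The falls with fulvestrant were Synpo (synaptopodin, -0.62), Rnd3 (-0.59), and Fhl1 (-0.38). Palld (0.61), Rnd3 (0.52) and Synpo (0.46) were higher with E2 in that comparison.

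Fibroblast markers moved with the same comparisons. Of the 9, 4 fell with fulvestrant against vehicle, among them Esr1 itself, and 0 rose, where 5.69% and 6.76% of all genes did. With E2, when set against E2 plus fulvestrant, 5 stood higher, as did 4.62% of all genes. Their summed normalized counts ran from 441148 to 494592 with vehicle, 508043 to 566637 with E2, 363066 to 376933 with E2 plus fulvestrant and 330723 to 395080 with fulvestrant. The smooth muscle or pericyte markers summed to 2291 to 3642 with vehicle and 2077 to 4447 with fulvestrant, which overlap, and 1 of 5 (Notch3) fell. That sum mostly followed Cspg4, at 1858 to 4255 over the libraries, and the fibroblast sum mostly followed collagen genes and Dcn. Marker calls were not followed through the refits made for the 39 genes. The part of these shifts in the changes of the 39 genes was not tested.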

How the data were processed

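RNA-Seq of HAFs was analyzed in 12 libraries grouped by the submitters' labels. The authors trimmed reads with Trimmomatic 0.39, aligned them to mm10 with STAR 2.5.2, counted them by gene and strand with HTSeq 0.13.5, left out low counts (under 10), and scaled the rest in DESeq2 1.37 by its median-of-ratios factors. They also described ComBat_seq and removeBatchEffect, yet the deposited values separate by replicate number. Each deposited value is a signal, the normalized count of a gene in a library, and 100% of them, within 0.01, were whole reads over a factor per library. A fold change of a gene with few reads is understated on the scale used here.

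Log2(value + 1) of 13233 genes was fitted with limma 3.58.1 in R 4.3.3 (eBayes with a variance trend) on all 12 libraries, with terms for group and replicate number. Calls required a fold over 1.2 and a p under 0.05 after Benjamini-Hochberg adjustment across the whole table. The replicate number was a term because the study adjusted for batches, which it did not name, and because same-numbered libraries deviated together: over 18 pairs of libraries from different groups the correlation across genes of the deviations from the group means ran from 0.63 to 0.92. Pairs with different numbers were not correlated, so these values do not by themselves show the pairing. The labels are the source of this pairing.

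The 40 genes, the 77 pathway genes and the markers were chosen with earlier results of these data known, so their counts are descriptions. Values in every library are given for 10 genes chosen by name, for at most 5 called genes in each direction per comparison, and for genes called in the interaction; of the pathway list at most 3 called genes in each direction are named for E2 against E2 plus fulvestrant and for fulvestrant against vehicle. Symbols and positions of 13154 genes came from GENCODE M21 (GRCm38), and promoters from RefSeq. The fit was tested on simulated counts with changes in the E2 group only and replicate shifts equal in all groups. It was not tested on fulvestrant changes that differ by replicate number. Python 3.11.15, pandas 2.3.3, numpy 2.4.6 and matplotlib 3.10.9 were used. The depth of 18827792 to 44040507 reads leaves counting error small for these genes, each with at least 334 normalized counts.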

Additional observations from a re-analysis of the deposited data

How the results depend on the processing

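Of 36 calls among the 39 genes over the 3 comparisons with fulvestrant, 0 reversed under any alternative, 29 held without replicate 1, and 8 held with each replicate or library left out in turn (Actn1 and Pxn in all 3 comparisons, Enah in both against vehicle). Without the replicate block the number of genes called was 1 in each of the 3 comparisons, Actn1. With only the 2 groups compared and no replicate block it was 0 in each of them, a fit that also called no Actn1. With only the 2 groups but the block kept it was 6 for fulvestrant against vehicle (Actn1, Flnc, Mylk, Pxn, Enah and Csrp1). Without the variance trend it was 5 for E2 against E2 plus fulvestrant, 7 for fulvestrant against vehicle and 7 for E2 plus fulvestrant against vehicle, the calls of Tpm1, Srf, Mrtfa, Cnn3, Myh10 and Tagln2 being lost wherever made, those of Mylk and Svil for fulvestrant, and those of Mylk and Myl9 for E2 against E2 plus fulvestrant. With each replicate number or library left out, the count ran from 2 to 12 for E2 against E2 plus fulvestrant, from 3 to 22 for fulvestrant against vehicle, from 4 to 16 for E2 plus fulvestrant against vehicle, from 0 to 2 for E2 against vehicle, from 0 to 1 for E2 plus fulvestrant against fulvestrant, from 0 to 2 for the interaction and from 0 to 24 for replicate number. For the 3 comparisons with fulvestrant the highest counts came without replicate 1 and the lowest without replicate 2 or 3, and for replicate number the lowest came without replicate 1. For E2 against vehicle the median over the 39 genes ran from 0.017 to 0.14, the highest without vehicle replicate 1.

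Scaling moved the split of calls. CPM gave 7 higher and 5 lower for fulvestrant against vehicle, 6 and 5 for E2 plus fulvestrant against vehicle, and 4 and 3 for E2 against E2 plus fulvestrant; quantile normalization gave 7 and 5 for the first and 6 and 5 for the second. The other alternatives were a pseudocount of 10, a mean of at least 100 and no fold threshold, and their counts stayed within 1.5 times. Tests on read counts with edgeR and DESeq2 were planned and not run, so the calls have no check by a count model. The cause of these differences was not tested, beyond the smaller number of libraries in the leave-outs.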
